A study of Mus musculus with 9 samples.

Results

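The genes described here encode the ATPase inhibitory factor 1 (IF1), the enzyme part it binds, and the factors that build that part. They are *Atpif1* (IF1), *Atp5a1*, *Atp5b*, *Atp5c1*, *Atp5d* and *Atp5e* (the α, β, γ, δ and ε subunits of F1), and *Atpaf1* and *Atpaf2* (F1 assembly factors). They were chosen by name among the non-control probes of the array, and are 8 of 31093 gene names. All 8 genes, with 10 probes, passed the filter on dim probes, as did 21924 genes in all. RNA came from the hippocampus of male C57BL/6J mice aged 9 months, with 3 IF1-KO, 3 control (CRL) and 3 IF1-overexpressing transgenic (IF1-TG) mice and 1 one-color Agilent array per mouse. The IF1-KO mice carried floxed *Atpif1* alleles, derived from a tm1a line on C57BL/6N, and lost exon 3 through a Cre driven by the *Camk2a* promoter. The IF1-TG mice carried human IF1 under a tetracycline-responsive element and a transactivator driven by the same promoter. That promoter acts mainly in excitatory neurons of the forebrain, so the other cells of the hippocampus kept an intact gene in the first model and lacked the driver of the transgene in the second. The sources used here do not give the alleles of the CRL mice on the arrays. The question asked of these genes was whether the dose of IF1 goes with a change in the mRNA of its own target.

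F1 is the part of mitochondrial ATP synthase that protrudes into the matrix. Its α and β subunits form a ring in which the β subunits make ATP, and the γ, δ and ε subunits form the stalk that turns inside the ring, driven by the proton flow through Fo in the membrane. IF1 is a small, nuclear-encoded protein that inserts between α and β at the catalytic interface and blocks the enzyme, and it is abundant in neurons. ATPAF1 and ATPAF2 are chaperones that hold newly made β and α, respectively, until they join the ring.

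Signals are given as log2 intensity above the array's 75th percentile, so that 0 is the 75th percentile. A gene was called when 1 of its probes differed by 1.5-fold or more with an unadjusted p-value below 0.05 in a limma fit of all 9 arrays, the thresholds of the study's methods. The Benjamini-Hochberg adjusted p over 28011 probes is given beside. The arrays lay on 3 slides: 2 IF1-TG arrays (replicates 1 and 2) were on slide 1, those of IF1-KO replicate 1, IF1-TG replicate 3 and the first 2 CRL mice were on slide 2, and the remaining 2 IF1-KO arrays and CRL replicate 3 were on slide 3. Probes well above background made up 71.1% to 73.0% of each IF1-KO array, 72.2% to 74.9% of each CRL array and 66.7% to 69.5% of each IF1-TG array. Markers of excitatory neurons were well above background on all 9 arrays for 6 of 6 genes, as were 7 of 8 markers of hippocampal subfields (*Iyd* was on 4 arrays).

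The array labelled IF1-KO replicate 1 (KO1 in what follows) goes against its label, since its *Atpif1* signal was as high as that of the control and transgenic arrays. The differences that involve IF1-KO are therefore given with and without it for the brightest probe of each gene. KO1 was set apart by its *Atpif1* signal, so for *Atpif1* the limma fit without it is a description and not a test.

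Markers of cell types and regions also differed between arrays. The summed signal of the hippocampal subfield markers was 4.22 on IF1-KO replicate 2, the array lowest for *Atpif1*, and 4.61 to 4.97 on the other 8 arrays. With all arrays 0 of these 8 genes were called, and without KO1 *Zbtb20* was called between IF1-TG and IF1-KO (0.80, unadjusted p = 0.0314, limma) and *Prox1* between IF1-KO and CRL (-0.65, unadjusted p = 0.0274, limma). IF1-KO replicate 2 was also the lowest of the 9 arrays for the summed oligodendrocyte (6.32) and astrocyte (4.63) markers. The summed signal of 6 microglia markers lay between 4.42 and 4.61 on the IF1-KO arrays, under the 4.67 to 4.76 of CRL and the 4.71 to 4.86 of IF1-TG, with 0 of 6 genes past the thresholds in any comparison. The oligodendrocyte markers summed to 6.32 to 6.87 on the IF1-KO arrays, 6.75 to 7.13 on the CRL arrays and 6.87 to 7.18 on the IF1-TG arrays, so that IF1-KO and IF1-TG did not overlap but met at 6.87, with 0 of 6 genes past the thresholds in the fit of all 9 arrays. With KO1 left out, *Mbp*, which encodes a myelin protein, was called in all 3 comparisons, each time on a dimmer probe (0.62 between IF1-TG and IF1-KO, 0.60 between IF1-TG and CRL, and 0.81 between IF1-KO and CRL on the same probe as the second), while its brightest probe differed by -0.20, -0.087 and 0.11. Of 6 astrocyte markers, 1 was called between IF1-TG and IF1-KO, *Aqp4*, the water channel of astrocytes, on its dimmer probe (0.79, unadjusted p = 0.00249, limma), and its brightest probe differed by 0.40 (unadjusted p = 0.0778, limma), or by 0.59 without KO1 (unadjusted p = 0.0127, limma), which was called. Of 6 interneuron markers, 1 was called between IF1-TG and CRL, *Pvalb*, on its dimmer probe (-0.65, unadjusted p = 0.0402, limma), whereas its brightest probe differed by 0.090 (unadjusted p = 0.597, limma). That call was lost without KO1 (unadjusted p = 0.0511, limma), where 0 of 6 interneuron markers were called. The summed interneuron signal was 5.25 on IF1-TG replicate 1 and 6.09 to 6.36 on the other arrays.

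The brightest probes of all 6 striatal markers were lower than in CRL in both IF1-TG (median -0.39) and IF1-KO (median -0.36). Their summed signal was 3.15 on CRL replicate 3 and at most 2.33 on any other array. With all 9 arrays, the 1 of them called was *Adora2a*, between IF1-TG and CRL (-0.96, unadjusted p = 0.0476, limma) and between IF1-KO and CRL (-1.16, unadjusted p = 0.0221, limma). No endothelial or choroid plexus marker was called, and the choroid plexus sum ran from 1.03 to 7.49 between arrays. In whole hippocampus, fewer cells of a type and less RNA per cell cannot be told apart, and the part of these markers in the results that follow was not tested.

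*Atpif1* lies on chromosome 4 of GRCm38 from 132530555 to 132535450. Its single probe, placed on the minus strand of chromosome 4 of mm9 from 132086507 to 132086566, is the only one here that reads the targeted gene, and the first 30 of its 60 bases are shown, followed by 2 other probes discussed later. These are the first 30 bases of the brighter *Atp5c1* probe, whose position does not match its gene, and all 60 bases of the *Atp5d* probe, which reads the δ subunit gene. All bases are in lower case, since no base of a probe is singled out.
Atpif1: ccgtatcactccccacgtctgtagacacat
Atp5c1: tcatctctgggactgctgctctggattaat
Atp5d: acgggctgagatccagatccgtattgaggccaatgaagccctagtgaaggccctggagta

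*Atpif1* was higher in IF1-TG than in IF1-KO hippocampus, with the IF1-KO arrays far apart from each other. Its signal was 6.43 on the array labelled KO1, 5.20 on replicate 2 and 5.53 on replicate 3. It was 6.30, 6.34 and 6.19 on the CRL arrays and 6.42, 6.38 and 6.51 on the IF1-TG arrays. IF1-KO replicates 2 and 3 were the lowest of the 9 arrays, whereas KO1 was above every CRL array and above 2 of the 3 IF1-TG arrays, so the IF1-KO arrays overlapped both other genotypes. The order of the means was IF1-TG (6.44 ± 0.065, SD, n = 3), CRL (6.28 ± 0.078, SD, n = 3) and IF1-KO (5.72 ± 0.64, SD, n = 3), and without the array labelled KO1 the last mean was 5.36.

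IF1-TG exceeded IF1-KO by 0.72 on the log2 scale (SE 0.27, 1.65-fold, unadjusted p = 0.0280 and adjusted p = 0.681 from limma), and *Atpif1* was the 1 gene of the 8 called in this comparison, where 4.69% of all genes were called. It was also the 1 probe of 10 with an unadjusted limma p below 0.05, against 7.12% of all probes. Without the array labelled KO1 the difference was 1.07 (SE 0.14, 2.10-fold, unadjusted p = 9.52e-05, adjusted p = 0.478, limma), with 5.75% of all genes called. Leaving out an array chosen by this same signal narrows its spread by construction, so this p is a description. The call was lost without any one of IF1-KO replicates 2 and 3 (unadjusted p = 0.1004 and 0.0867, limma) or IF1-TG replicates 1, 2 and 3 (unadjusted p = 0.0548, 0.0508 and 0.0684, limma). The difference was then 0.46 and 0.62 for those IF1-KO arrays, and 0.73, 0.75 and 0.68 for those IF1-TG arrays. With slide as a fixed block the difference was 0.39 (unadjusted p = 0.285, limma) and with slide as a random block 0.68 (unadjusted p = 0.0336, limma), which kept the call, and within slide 2, with 1 array of either of these genotypes, IF1-TG minus IF1-KO was 0.079.

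Between IF1-KO and CRL, *Atpif1* differed by -0.56 (SE 0.27, 95% interval -1.18 to 0.063, unadjusted p = 0.0725, adjusted p = 1.00, limma) and was not called. Here 0 of the 8 genes were called, against 1.34% of all genes, and 0 of the 10 probes had an unadjusted limma p below 0.05, against 2.56% of all probes. The arrays of these genotypes overlapped at all 10 probes, where 8.05% of all probes did not overlap, and without KO1 they did not overlap at 3 of 10 probes, against 21.2% of all. Without the array labelled KO1, *Atpif1* fell by 0.91 (SE 0.14, 1.88-fold lower, unadjusted p = 0.00028, adjusted p = 0.984, limma), and it was the 1 gene of the 8 called, where 2.06% of all genes were. This p too is a description, since *Atpif1* itself set KO1 apart. With all arrays and slide as a block, *Atpif1* differed by -0.36 (fixed block, unadjusted p = 0.160, limma) and -0.52 (random block, unadjusted p = 0.0786, limma). Without IF1-KO replicate 2 it differed by -0.30 (unadjusted p = 0.261, limma). IF1-KO minus CRL was 0.11 within slide 2, which held the array labelled KO1, and -0.82 within slide 3, which held the other IF1-KO arrays. All 3 comparisons draw on the same 3 groups of arrays and so share arrays pairwise.

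The IF1-TG arrays were all above the CRL arrays for *Atpif1*, by a mean of 0.16 (SE 0.27, 95% interval -0.46 to 0.78, unadjusted p = 0.567, limma), and these genotypes did not overlap at 3 of the 10 probes, against 12.3% of all probes. Without the array labelled KO1, whose spread enters the shared error, the interval narrowed to -0.14 to 0.46 (unadjusted p = 0.244, limma). The difference was 0.025 with quantile normalization, 0.034 with slide as a fixed block and 0.081 with normexp and quantile normalization. The transgene is human, and whether this mouse probe hybridizes to its transcript was not tested. Where the probe lies relative to the deleted exon was not analysed here.

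**Figure D1:**
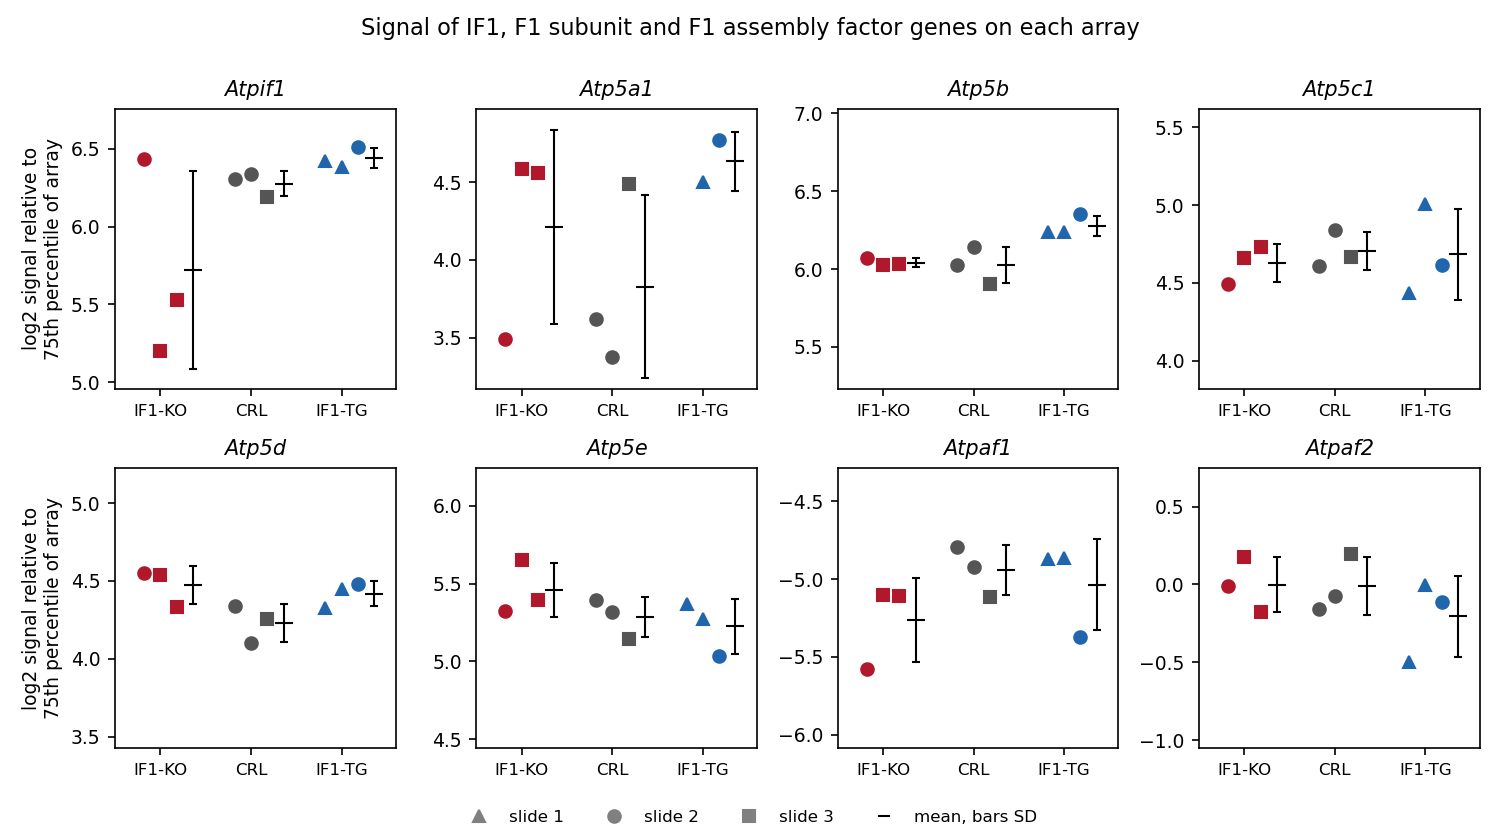
Log2 signal above the array's 75th percentile (vertical axis, a span of 1.8 in every panel) for the brightest probe of each gene, by genotype; each symbol is 1 mouse, its shape gives the slide, and the black mark and bars are the mean and SD. *Atpif1* was low on IF1-KO replicates 2 and 3 (5.20 and 5.53) and not on replicate 1 (6.43), whereas the *Atp5a1* signals split into a low set on slide 2 and a high set.

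*Atp5b*, the gene of the catalytic β subunit, is on chromosome 10 of GRCm38 from 128083307 to 128090388, and had the smallest standard error of the 10 probes. Its signal was 6.07, 6.03 and 6.03 on the IF1-KO arrays, 6.03, 6.14 and 5.91 on the CRL arrays and 6.24, 6.24 and 6.35 on the IF1-TG arrays. All 3 IF1-TG arrays were above all 6 others, and the IF1-KO and CRL arrays overlapped. IF1-TG minus CRL was 0.25 (SE 0.11, 95% interval 0.0083 to 0.49, 1.19-fold, unadjusted p = 0.0442, adjusted p = 0.578, limma), under the fold threshold, so the gene was not called. It was the 1 member probe of 10 with an unadjusted limma p below 0.05 in this comparison, where 8.53% of all probes had one, and 0 of the 8 genes were called, against 5.59% of all genes. Without KO1, the same difference had an unadjusted p of 0.0610 (limma). It was 0.14 with quantile normalization (unadjusted p = 0.176, limma), and the unadjusted limma p was also above 0.05 with normexp and quantile normalization (0.0695), median centring (0.0619), no filter on dim probes (0.0630), slide as a fixed block (0.0881), the replicate block (0.0798) and only these genotypes in the fit (0.0883). The unadjusted limma p stayed below 0.05 with trend and robust options (0.0154) and with slide as a random block (0.0401). It did so too with probes well above background on all 9 arrays (0.0408) and with the mean of probes (0.0417). The difference ran from 0.19 to 0.31 on leaving out arrays.

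IF1-TG minus IF1-KO for *Atp5b* was 0.23 (SE 0.11, 95% interval -0.0090 to 0.48, unadjusted p = 0.0572, limma) with all arrays and 0.25 (SE 0.13, unadjusted p = 0.0893, limma) without the array labelled KO1, and 0.11 with quantile normalization (unadjusted p = 0.267, limma). Its unadjusted limma p was below 0.05 with trend and robust options (0.0216) and with no other alternative. *Atp5b* was the 1 probe of the 10 at which these genotypes did not overlap, against 13.7% of all probes, and without KO1 there were 3 of 10 such probes, against 27% of all. IF1-KO minus CRL was 0.017 (SE 0.11, 95% interval -0.23 to 0.26, unadjusted p = 0.875, limma), which lies within 1.5-fold either way, and it was 0.0024 without KO1. Within slide 2, IF1-TG minus CRL was 0.27 and IF1-TG minus IF1-KO was 0.28. The summed signal of the 6 excitatory neuron markers was 4.85 to 5.12 on the IF1-TG arrays, 4.79 to 4.93 on the CRL arrays and 4.77 to 4.89 on the IF1-KO arrays, so these ranges overlapped, with 0 of 6 genes past the thresholds, and its part in the *Atp5b* values was not tested.

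*Atp5a1*, the gene of the α subunit, which completes the ring with β, had the largest standard error of the 10 probes. Its signal was 3.49, 4.58 and 4.56 on the IF1-KO arrays and 3.62, 3.37 and 4.49 on the CRL arrays. It was 4.50 and 4.77 on IF1-TG replicates 2 and 3, and the spot of IF1-TG replicate 1 was marked as an outlier by the scanner software and left out of the fit. The 3 low arrays were IF1-KO replicate 1 and CRL replicates 1 and 2, all on slide 2, and the fourth array of that slide, IF1-TG replicate 3, was the highest of all. The 2 IF1-TG arrays measured did not overlap the CRL arrays, but the spot left out would have read 4.41, under CRL replicate 3.

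IF1-TG minus CRL for *Atp5a1* was 0.81 (SE 0.42, 95% interval -0.18 to 1.79, unadjusted p = 0.0956, limma), which was not called, and with the outlier spot kept it was 0.73 (SE 0.36, unadjusted p = 0.0738, limma). Without the array labelled KO1 the same difference was called (SE 0.33, unadjusted p = 0.0457, adjusted p = 0.633, limma), where 5.34% of all genes were, and without CRL replicate 3 it was 1.14 (unadjusted p = 0.0232, limma). That array was the one with the high striatal markers, whose part in this value was not tested. Without CRL replicate 2 the difference was 0.58 (unadjusted p = 0.239, limma), and with the replicate block it was 0.57 (unadjusted p = 0.185, limma). With slide as a fixed block it was 1.28 (SE 0.20, unadjusted p = 0.00100, adjusted p = 0.215, limma), and with slide as a random block 0.83 (unadjusted p = 0.0717, limma), which was not called. IF1-TG minus IF1-KO was 0.42 (SE 0.42, unadjusted p = 0.348, limma), 1.25 with the fixed block (SE 0.21, unadjusted p = 0.0016, adjusted p = 0.485, limma) and 0.51 with the random block (unadjusted p = 0.240, limma). Within slide 2, the single IF1-TG array was 1.27 above the IF1-KO array and 1.27 above the mean of the CRL arrays. IF1-KO minus CRL was 0.38 (SE 0.38, unadjusted p = 0.343, limma) with all arrays and 0.74 (SE 0.33, unadjusted p = 0.0604, limma) without the array labelled KO1, yet it was -0.0043 within slide 2 and 0.079 within slide 3. IF1-TG minus IF1-KO was 0.064 (SE 0.36) without KO1. Slide 1 held only IF1-TG arrays, so that slide and that genotype cannot be told apart there.

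**Figure D2:**
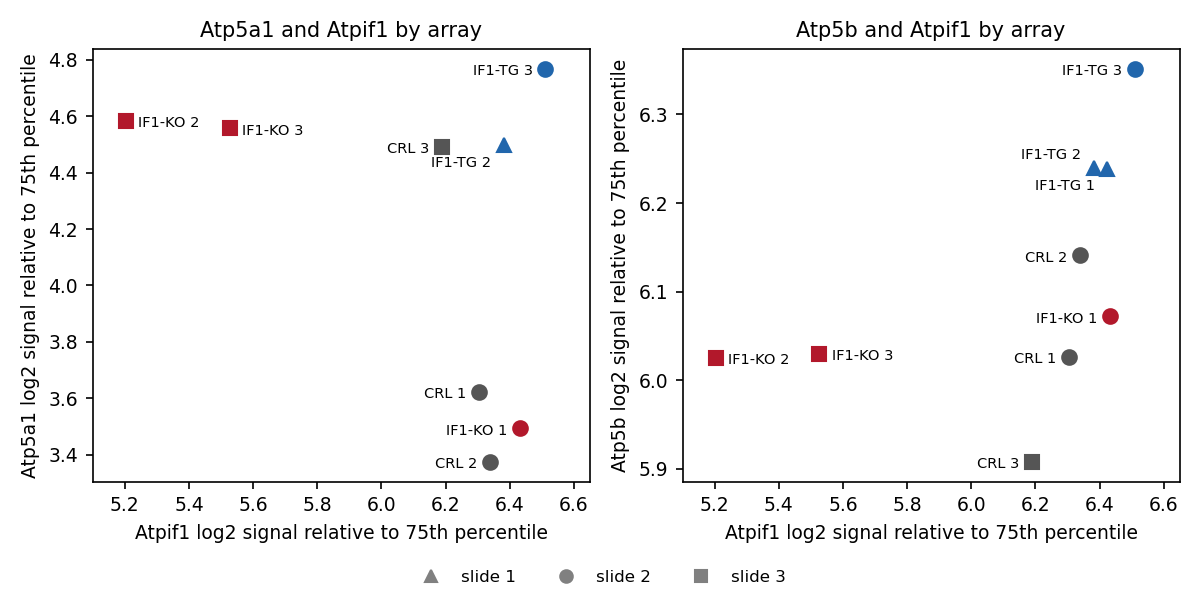
*Atp5a1* (left) and *Atp5b* (right) log2 signal relative to the 75th percentile (vertical axes) against *Atpif1* on the same array (horizontal axes), with 1 symbol per mouse, colored by genotype and shaped by slide (8 arrays on the left, where the outlier spot of IF1-TG replicate 1 is left out). IF1-KO replicates 2 and 3, the lowest for *Atpif1*, had *Atp5a1* signals of 4.58 and 4.56, while *Atp5b* was at 6.24 or above on the IF1-TG arrays alone.

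*Atp5c1*, the gene of the γ subunit, which forms the axle of the rotor, had 2 probes. The brighter one read 4.49, 4.66 and 4.73 on the IF1-KO arrays, 4.61, 4.84 and 4.66 on the CRL arrays and 4.43, 5.00 and 4.61 on the IF1-TG arrays, and the 3 genotypes overlapped. IF1-TG minus IF1-KO was 0.053 (SE 0.16, 95% interval -0.32 to 0.42), IF1-TG minus CRL was -0.023 (SE 0.16, 95% interval -0.39 to 0.35) and IF1-KO minus CRL was -0.075 (SE 0.16, 95% interval -0.45 to 0.30). All 3 intervals of this probe lie within 1.5-fold either way. Without KO1, IF1-TG minus IF1-KO was -0.015 and IF1-KO minus CRL was -0.0078 (SE 0.19 for both). The dimmer probe ran from -1.08 to 0.028 over the 9 arrays, and its values correlated with those of the brighter one at r = -0.617 over the 9 arrays, which is a description only. In the same order of comparisons, the dimmer probe differed by -0.035, -0.19 and -0.16, and all 3 of its intervals reached beyond 1.5-fold. Both probes are placed by the deposited annotation on chromosome 13 of mm9, between 77808194 and 77808373, whereas the gene is on chromosome 2 of GRCm38 from 10056030 to 10080510, so the locus these signals come from is uncertain.

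*Atp5d*, the gene of the δ subunit at the foot of the central stalk, read 4.55, 4.54 and 4.33 on the IF1-KO arrays, 4.34, 4.10 and 4.26 on the CRL arrays and 4.33, 4.45 and 4.48 on the IF1-TG arrays. IF1-KO minus CRL was 0.24 (SE 0.12, 95% interval -0.028 to 0.52, unadjusted p = 0.0728, limma), and without the array labelled KO1 it was 0.21 (SE 0.14, unadjusted p = 0.181, limma). The ranges overlapped in every pair of genotypes. IF1-TG minus CRL was 0.19 (SE 0.12, unadjusted p = 0.153, limma) and IF1-TG minus IF1-KO was -0.057 (SE 0.12, unadjusted p = 0.646, limma), or -0.018 (SE 0.14) without KO1, and the intervals of all 3 comparisons lay within 1.5-fold.

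*Atp5e*, the gene of the ε subunit, which packs against γ and δ in the stalk, read 5.33, 5.65 and 5.40 on the IF1-KO arrays, 5.39, 5.32 and 5.14 on the CRL arrays and 5.37, 5.27 and 5.03 on the IF1-TG arrays. IF1-TG minus IF1-KO was -0.23 (SE 0.14, 95% interval -0.56 to 0.093, unadjusted p = 0.139, limma) with all arrays. Without the array labelled KO1 it was -0.30 (SE 0.16, unadjusted p = 0.104, limma), and the remaining IF1-KO arrays were above every CRL and IF1-TG array, a separation that 21.2% of all probes showed from CRL and 27% from IF1-TG, in either direction. IF1-KO minus CRL was 0.17 (unadjusted p = 0.259, limma), or 0.24 (unadjusted p = 0.181, limma) without KO1, IF1-TG minus CRL was -0.061 (unadjusted p = 0.682, limma), and neither was called.

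*Atpaf1*, the chaperone of β, gave a dim signal that was marked well above background on all 9 arrays. It read -5.58, -5.10 and -5.11 on the IF1-KO arrays, -4.79, -4.93 and -5.11 on the CRL arrays and -4.87, -4.86 and -5.37 on the IF1-TG arrays, with intensities between 37.4 and 77.7. IF1-KO minus CRL was -0.32 (SE 0.19, 95% interval -0.76 to 0.12, unadjusted p = 0.137, limma), and -0.16 (SE 0.19, unadjusted p = 0.428, limma) without the array labelled KO1, and the ranges overlapped. IF1-TG minus CRL was -0.092 (SE 0.19) and IF1-TG minus IF1-KO was 0.23 (SE 0.19), or 0.069 (SE 0.19) without KO1.

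*Atpaf2*, the chaperone of α, had 2 probes whose values correlated at r = 0.54 over the 9 arrays, as a description. The brighter one read -0.010, 0.18 and -0.17 on the IF1-KO arrays, -0.16, -0.077 and 0.20 on the CRL arrays and -0.50, -0.0023 and -0.11 on the IF1-TG arrays. Genotypes overlapped in each pair, and the differences were -0.20 between IF1-TG and IF1-KO (SE 0.17), -0.19 between IF1-TG and CRL (SE 0.17) and 0.0092 between IF1-KO and CRL (SE 0.17). The dimmer probe differed by -0.044, 0.024 and 0.069 in the same order. With KO1 left out, the brighter probe differed by -0.21 between IF1-TG and IF1-KO and by 0.013 between IF1-KO and CRL (SE 0.21 for both).

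Over the 10 probes, 0 had an adjusted limma p below 0.05 in any of the 3 comparisons, where 0.0107% of all probes had one between IF1-TG and IF1-KO, 0.00357% between IF1-TG and CRL and 0% between IF1-KO and CRL. The 95% interval of the difference lay within 1.5-fold either way for 5 of 10 probes between IF1-TG and IF1-KO (45.8% of all probes), 6 of 10 between IF1-TG and CRL (44.9%) and 6 of 10 between IF1-KO and CRL (50.2%). For the other probes the interval reached beyond 1.5-fold. Without KO1 these counts were 5, 7 and 5 of 10, against 35.7%, 44.2% and 38.6% of all probes. The 7 genes other than *Atpif1* had a median of 0.053 for IF1-TG minus IF1-KO (4 of 7 above 0, against 51.3% of all genes), -0.023 for IF1-TG minus CRL (3 of 7, against 49.8%) and 0.017 for IF1-KO minus CRL (5 of 7, against 48.1%). The medians over all genes were 0.0065, -0.00086 and -0.0083. Without the array labelled KO1, the medians over the 7 genes were -0.015, -0.023 and 0.013, with 3, 3 and 5 of 7 above 0, against 51.9%, 49.8% and 47.7% of all genes.

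**Figure D3:**
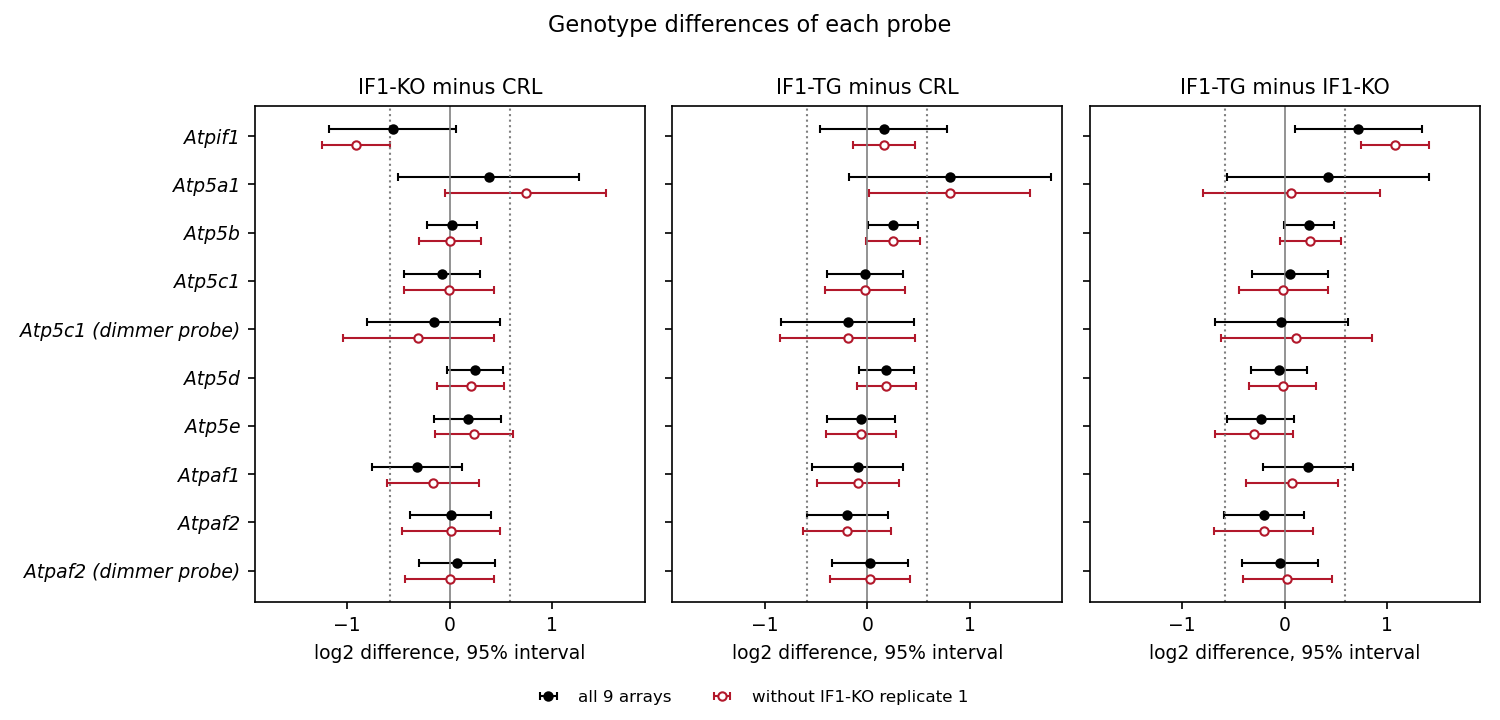
Log2 difference between genotypes (horizontal axes) for each of the 10 probes (vertical axis), with 95% intervals from limma, for all 9 arrays (filled) and without the array labelled KO1 (open); dotted lines mark 1.5-fold either way. The *Atpif1* interval clears 0 between IF1-TG and IF1-KO in both fits and between IF1-KO and CRL only in the second, and between IF1-TG and CRL the *Atp5b* interval clears 0 with all arrays (0.0083 to 0.49) but not in the second fit (-0.015 to 0.52), whereas that of *Atp5a1* clears 0 only in the second (0.021 to 1.59). The second fit leaves out the array that *Atpif1* itself set apart, so its *Atpif1* intervals are descriptions.

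Correlations between the F1 genes across mice were spread on both sides of 0. Among the 7 genes without *Atpif1*, the 21 pairwise correlations of the brightest probes ran from -0.55 to 0.39 with a median of 0.065, and 12 of 21 were above 0. Taken as deviations from the genotype means, they ran from -0.64 (*Atp5a1* with *Atp5b*) to 0.85 (*Atp5e* with *Atpaf1*). These correlations are over at most 9 arrays that share slides and genotypes, and are descriptions. The genes most like *Atpif1* over the 9 arrays, out of 21676 compared, were *Snx30* (r = 0.960), *Hnrnpa0* (r = 0.955), *Tctn3* (r = 0.955), *Rps28* (r = 0.953) and *Impad1* (r = 0.952), and each was lowest on IF1-KO replicate 2 and next lowest on IF1-KO replicate 3. These genes were picked by that correlation, so they share the low arrays of *Atpif1* by the choice itself. The genes most like *Atp5a1* over the 8 arrays that measured it, out of 21714, were *Fgfr3* (r = 0.994), *Ndufaf1* (r = 0.981), *Srbd1* (r = 0.973), 4933417G07Rik (r = 0.973) and *Gm5126* (r = 0.967), which were chosen after their values were seen. All 5 had the same 3 lowest arrays as *Atp5a1*, those of slide 2 other than IF1-TG replicate 3, which again follows from the choice by correlation.

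The other parts of the enzyme were read from lists of gene names, none of them a gene of mitochondrial DNA, so Fo was not covered whole. Of the genes of Fo, which conducts protons through the membrane, and of the peripheral stalk, which holds the ring still, 12 of 12 were tested with 22 probes, and 0 were called in either direction in any comparison, with or without KO1, where 4.69%, 5.59% and 1.34% of all genes were called between IF1-TG and IF1-KO, IF1-TG and CRL, and IF1-KO and CRL. The brightest probe was higher in IF1-TG than in IF1-KO for 11 of 12 genes (51.3% of all genes), with a median difference of 0.16, and higher in IF1-TG than in CRL for 8 of 12 (49.8% of all genes), with a median of 0.12. It was higher in IF1-KO than in CRL for 3 of 12 (48.1% of all genes), with a median of -0.086. With KO1 left out the counts were again 11, 8 and 3 of 12, and the medians were 0.20, 0.12 and -0.15 in the same order. The summed signal of these genes was 8.62 to 8.72 on the IF1-TG arrays and 8.45 to 8.53 on the IF1-KO arrays, without overlap, whereas the CRL arrays spanned 8.47 to 8.75. Between IF1-TG and IF1-KO, dimmer probes of *Atp5j2* (-0.23), *Atp5l* (-0.27) and *Atp5f1* (-0.013) were below 0, and the other dimmer probes were above 0. This list was not read under the other normalizations. Of 8 further genes, which carry substrates to the enzyme, help to assemble it or shape the cristae in which it sits, 0 were called in any comparison, and their median differences were -0.028 between IF1-TG and IF1-KO, -0.065 between IF1-TG and CRL and -0.11 between IF1-KO and CRL, or 0.014, -0.065 and -0.15 without KO1.

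**Figure D4:**
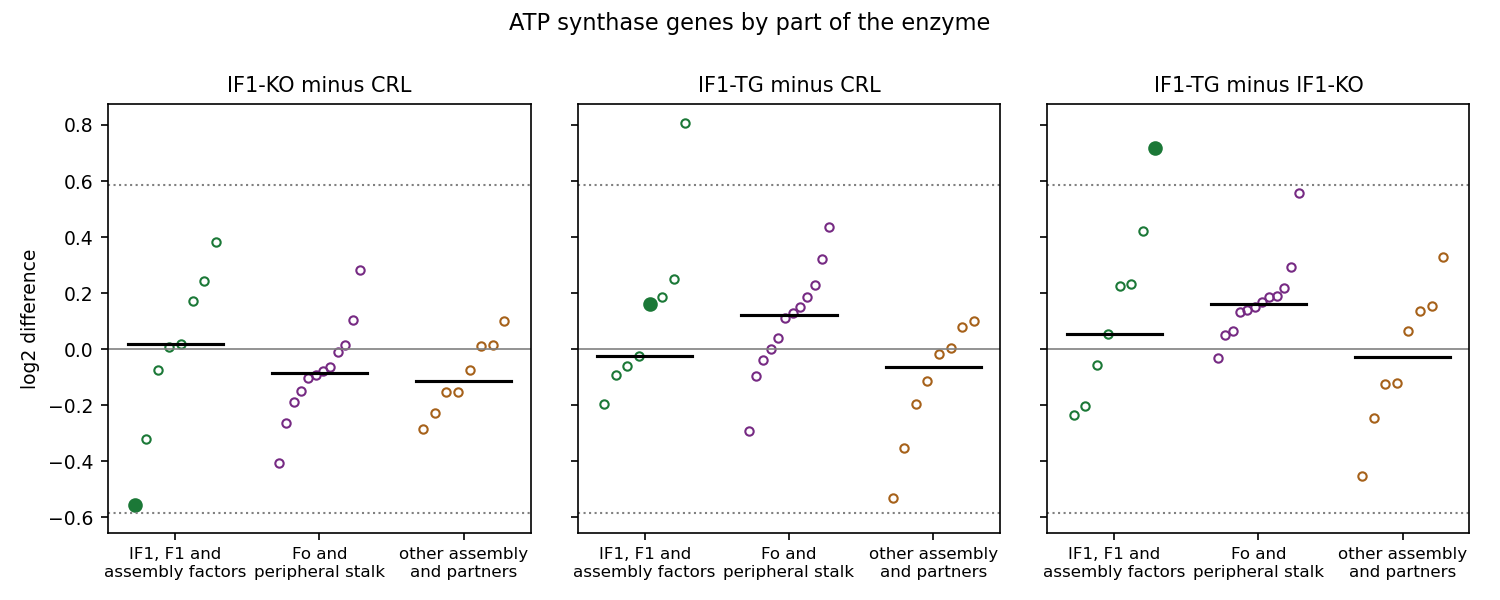
Log2 difference between genotypes (vertical axis) for the brightest probe of each gene, in 3 sets of ATP synthase genes (horizontal axis), with all 9 arrays; black lines are medians (for the first set over the 7 genes without *Atpif1*, which is the filled point), and dotted lines mark 1.5-fold either way. Of the listed Fo and peripheral stalk genes, 11 of 12 lie above 0 between IF1-TG and IF1-KO on their brightest probes, with a median of 0.16.

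The promoters of the inhibitor and of the catalytic subunit are shown because *Atpif1* and *Atp5b* are the 2 genes whose IF1-TG arrays were above all CRL arrays with every spot measured. They come from the windows of 250 bases before the transcript starts of the RefSeq promoter table on GRCm38.p6. The *Atpif1* window runs into the gene span given above, which starts upstream of that transcript, so only its 214 bases outside the span are shown, chr4:132535451-132535664 on the minus strand. The *Atp5b* window is shown whole, chr10:128083057-128083306 on the plus strand. Capitals mark matches on either strand to the NRF1 core (GCGCA, any base, then GCGC), the Sp box (GGGCGG), the CCAAT box (CCAAT) and the ETS core (CCGGAAG).
Atpif1: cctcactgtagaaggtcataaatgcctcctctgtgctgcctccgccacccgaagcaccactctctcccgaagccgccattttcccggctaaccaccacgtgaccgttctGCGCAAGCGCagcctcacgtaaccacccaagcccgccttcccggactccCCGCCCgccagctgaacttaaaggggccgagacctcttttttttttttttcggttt
Atp5b: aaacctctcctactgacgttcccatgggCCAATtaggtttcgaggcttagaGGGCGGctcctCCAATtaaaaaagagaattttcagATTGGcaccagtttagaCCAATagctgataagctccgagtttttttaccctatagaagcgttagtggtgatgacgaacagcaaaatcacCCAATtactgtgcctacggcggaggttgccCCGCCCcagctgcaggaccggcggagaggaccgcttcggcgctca

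The *Atpif1* promoter held 1 NRF1 core, a motif bound by a regulator of nuclear genes for mitochondrial proteins, and 1 Sp box, and no CCAAT box. The *Atp5b* promoter held 5 CCAAT boxes and 2 Sp boxes, and no NRF1 core in this window. Promoters of chromosome 18, which holds *Atp5a1*, were left out of this reading. The other 7 of the 8 genes had promoters in the table (10 promoters), and of these 7 the NRF1 core was found in 2 genes, the ETS core in 1, the Sp box in 4, the CCAAT box in 5 and the TATA box (TATAAA) in 0. Over all 32851 promoters of this length on the other chromosomes, 3.74% held the NRF1 core, 6.91% the ETS core, 32.7% the Sp box, 33.8% the CCAAT box and 12.4% the TATA box. A match is a description of these letters.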

How the data were processed

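RNA from 9 hippocampi (3 mice per genotype) was hybridized to Agilent arrays. The authors deposited processed spot intensity values from Agilent Feature Extraction 10.7.3.1, background-subtracted and detrended within each array and not normalized between arrays. The deposited mean and background intensity, the spot marks of the software (other units, deposited as flags) and probe positions on mm9 were also used. The submitters' processing notes name limma with no version.

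Intensities were taken to log2 minus the array's 75th percentile, without control spots and outlier spots. A probe was kept if some genotype had it well above background on each of its 3 arrays (28011 of 39429 probes). A two-sided limma fit (3.58.1, R 4.3.3) on genotype used all 9 arrays. A gene's difference is that of its brightest probe unless another is named, and a gene is called on any of its probes. There were 0 saturated spots, and the number of arrays limits precision. The rule for named genes took the 8 genes with every probe, other ATP synthase genes past the thresholds (0 were) and the 5 genes most correlated with *Atpif1*. The 5 genes most like *Atp5a1* and the cell type markers named were added after their values were seen. Calls of single striatal markers in the fit without IF1-KO replicate 1 are not reported here. The list of Fo and stalk genes held 13 names, of which *Atp5i* is a synonym of *Atp5k*, leaving 12 genes. The genes and lists were chosen with earlier results of these data known. Steps were tested on simulated data. Alternatives were normexp (offset 50) with quantile normalization, quantile normalization, median centring, other filters, slide or replicate number as a block, fits of 2 genotypes, trend and robust options, mean of probes, the adjusted p as call rule, outlier spots kept (chosen after seeing the data) and each array left out. Promoters are those of RefSeq on GRCm38.p6, without chromosome 18.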

Additional observations from a re-analysis of the deposited data

How the results depend on the processing

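The count of called genes between IF1-TG and IF1-KO was 1, and it was 0 with normexp and quantile normalization, with quantile normalization, with only the 2 genotypes in the fit and with the adjusted p as the rule, and between 0 and 1 when each array was left out. With slide as a fixed block it was again 1, but *Atp5a1* in place of *Atpif1*. Between IF1-TG and CRL it was 0, and 1 with slide as a fixed block, with a range of 0 to 1 on leaving out arrays (1 without the array labelled KO1 and 1 without CRL replicate 3). Between IF1-KO and CRL it was 0, with a range of 0 to 1 (1 without the array labelled KO1). The share of all genes called was not counted with slide as a block or without CRL replicate 3. The *Atpif1* difference between IF1-TG and IF1-KO was 0.57 with normexp and quantile normalization (unadjusted p = 0.0308, limma), 0.60 with quantile normalization (unadjusted p = 0.0560, limma), 0.39 with slide as a fixed block, 0.72 with only these genotypes in the fit (unadjusted p = 0.0571, limma) and 0.079 within slide 2, and it ran from 0.46 to 1.07 on leaving out arrays. Between IF1-TG and CRL it was 0.16, and as low as 0.025 with quantile normalization. Between IF1-KO and CRL it was 0.11 within slide 2 and ran from -0.91 to -0.30. The 24 differences of single genes had 501 values under alternatives other than the within-slide values, of which 18 (in 7 differences) had the other sign, all from differences of at most 0.23 in the reported fit and 0 past the thresholds. Of the 32 within-slide values, which rest on 1 or 2 arrays a genotype and have no test, 8 had the other sign, 7 of them between IF1-KO and CRL, from differences of up to 0.56. These were *Atpif1* (0.11), *Atp5a1* (-0.0043), *Atp5b* (-0.012) and *Atp5e* (-0.031) within slide 2 and *Atp5c1* (0.033), *Atpaf1* (0.0082) and *Atpaf2* (-0.20) within slide 3, beside *Atpaf2* between IF1-TG and CRL (0.0018) within slide 2. Among the other alternatives, *Atp5c1* between IF1-TG and IF1-KO became -0.043 with normexp and quantile normalization and -0.0075 with quantile normalization (leaving out arrays, -0.11 to 0.18), and *Atpaf1* became -0.038 with slide as a fixed block. Between IF1-KO and CRL, *Atp5b* became -0.00067 with median centring (leaving out arrays, -0.041 to 0.075), and *Atpaf2* became -0.11 with normexp and quantile normalization, -0.0087 with median centring and -0.045 with slide as a fixed block (leaving out arrays, -0.080 to 0.11). Between IF1-TG and CRL, leaving out arrays gave -0.18 to 0.10 for *Atp5c1*, -0.13 to 0.036 for *Atp5e* and -0.18 to 0.077 for *Atpaf1*. The cause was not tested.

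The replicate numbers are shared by the genotypes. Same-numbered arrays correlated at r between -0.165 and 0.116 in their deviations from the group means, with 1 of 9 pairs over 0.1. Arrays of different numbers and genotypes correlated at r between -0.246 and 0.335. These values also carry the slides and cannot show whether the numbers pair the mice, and the reported fit used no pairing. With the replicate block, the *Atpif1* difference between IF1-TG and IF1-KO was 0.72 (unadjusted p = 0.0312, limma), and the counts of called genes were 1, 0 and 0 in the 3 comparisons.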
